A study of Mus musculus with 8 samples.

Results

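The genes described here encode potassium channel subunits, in RNA from astrocytes that had been flow sorted from mouse brain. They are the genes whose mouse symbol starts with Kcn, matched to the count tables by Ensembl gene identifier, and they had to reach 15 counts summed over all libraries. Of 99 Kcn genes in the tables, 55 met this rule, out of 55417 gene rows in all. The genes nearest to the limit were Kcna10 with 13 counts, outside it, and Kcnh7 with 18 counts, inside it. The cells came from 4 wild-type (WT) mice at postnatal day 29. Mice 2 and 3 were female and mice 1 and 4 male, and both regions were taken from each of them. The 2 groups compared are thus cortical and subcortical astrocytes, with 4 libraries each, 1 per mouse. The reporter or gate of the sort, the strain and the exact subcortical tissue are not given in the sources used here.

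Potassium channels let potassium ions cross the membrane and so set its resting potential. Inward rectifiers of the Kcnj family and two-pore domain leak channels of the Kcnk family carry most of the resting conductance of astrocytes, which lets these cells take up and spread the potassium that active neurons release. Voltage-gated channels (Kcna to Kcnd, Kcnh, Kcnq and the modifier families Kcnf, Kcng, Kcns and Kcnv) open on depolarisation, and channels of the Kcnm, Kcnn and Kcnt families respond to calcium or sodium inside the cell. The Kcnab, Kcne, Kcnip and Kcnmb genes encode auxiliary subunits that change the gating or trafficking of the pore-forming ones.

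Levels are given as CPM, gene counts brought to 1 common library size, with TMM factors that leave extreme genes out of the scaling. The libraries read about 1 fragment per transcript at its 3′ end, so that a CPM needs no correction for transcript length. Gene counts summed to 3537852 to 4060891 per cortical library and 2484717 to 3829804 per subcortical library. Of 14 astrocyte markers all had counts, 4 were higher and 2 lower in cortical cells, and their summed level was 47677 to 52980 CPM in cortical against 40345 to 45075 CPM in subcortical libraries. Oligodendrocyte lineage markers were the other-cell list that differed most in count of calls, with 8 of 11 tested genes lower and 0 higher in cortical libraries. Their summed level was 1011 to 1464 CPM in cortical against 2506 to 6023 CPM in subcortical libraries, and 0 of the 12 listed were without counts. Neuronal markers had 1 of 11 tested genes higher (Slc17a7) and 1 lower (Nefl), with sums of 116 to 197 CPM in cortical against 101 to 171 CPM in subcortical libraries. Microglial markers had 3 of 8 tested genes higher and 0 lower, with sums of 172 to 369 CPM in cortical against 124 to 210.5 CPM in subcortical libraries. Pericyte and smooth muscle markers had 0 of 7 tested genes called, and their sums overlapped, at 461 to 1043 CPM in cortical against 333 to 1219.6 CPM in subcortical libraries. Endothelial markers had 1 of 2 tested genes lower, the glucose transporter gene Slc2a1, which astrocytes also express. Cdh5 and Tek were at 0 in all libraries. The list summed to 167 to 260.4 CPM in cortical against 330 to 621 CPM in subcortical libraries. Most of this was Slc2a1, at 217 ± 40.5 CPM in cortical against 435 ± 127 CPM in subcortical libraries (SD, n = 4). Ependymal and choroid plexus markers had 1 of 5 tested genes lower, Foxj1, with sums of 62.4 to 122 CPM in cortical against 109 to 744 CPM in subcortical libraries. Among them Ttr, which was not tested, varied widely, at 6.53 ± 11.55 CPM in cortical against 154 ± 305 CPM in subcortical libraries (SD, n = 4). In such bulk samples fewer cells of a type and less RNA per cell cannot be told apart. The part of these other cells in the results on potassium channels was not tested.

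Few channel genes made up most of the signal. Of the 55 members, 9 averaged at least 100 CPM over the 8 libraries, 15 lay between 10 and 100 CPM and 31 were below 10 CPM. The 3 most abundant were Kcnk1, a two-pore domain channel gene also known as TWIK-1, and Kcnj10 and Kcnj16, which encode the inward rectifiers Kir4.1 and Kir5.1. Kcnj10 encodes the main inward rectifier of astrocytes, and Kir5.1 is known to assemble with it. Next came the noncoding RNA Kcnq1ot1, the mechanosensitive leak channel gene Kcnk2 (TREK-1), the voltage-gated channel genes Kcna2 and Kcnd2, the calcium-binding subunit gene Kcnip3 and the calcium-activated channel gene Kcnn3.

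**Figure D1:**
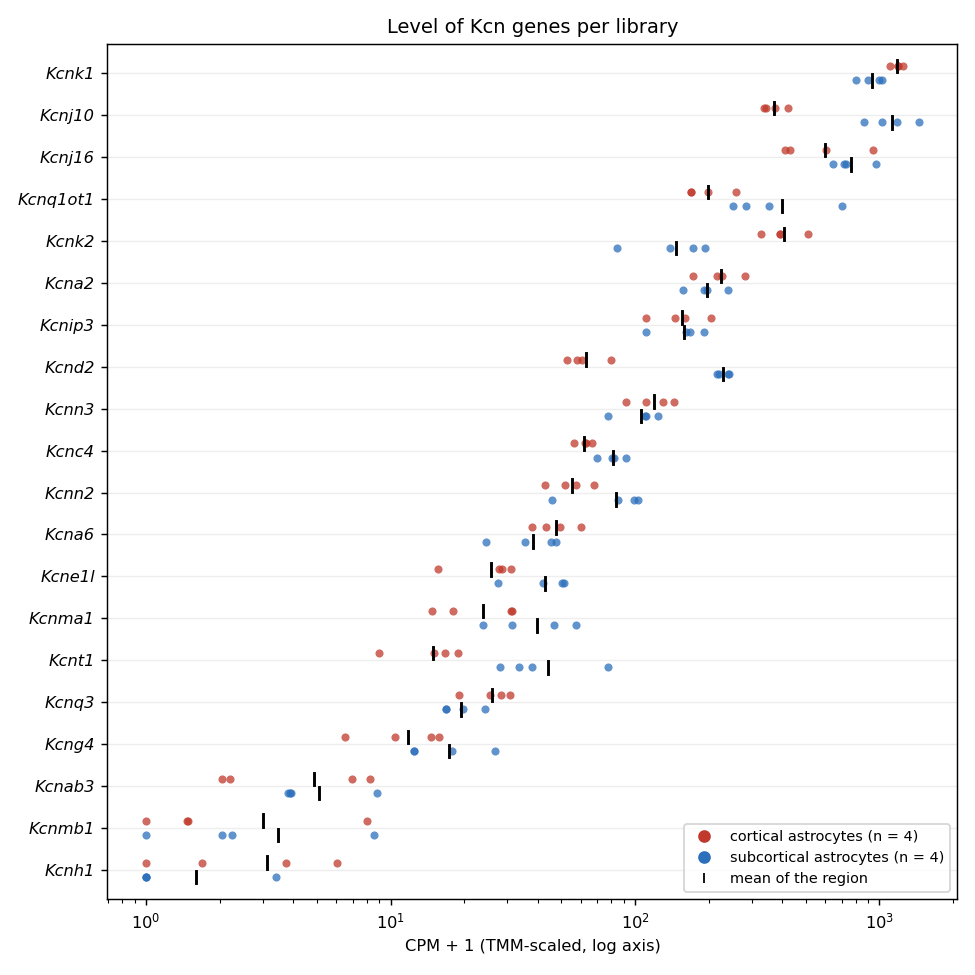
Level of the Kcn genes described here by the naming rule in every library, as CPM + 1 on a log axis, with cortical libraries (red, n = 4) above subcortical ones (blue, n = 4) and black ticks at the region means. Kcnd2, Kcnj10, Kcnk2 and Kcnt1 have red and blue points that do not overlap, whereas those of Kcnip3 and Kcna2 lie over each other.

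The comparison of regions asked which of these genes differ between cortical and subcortical astrocytes. One channel gene, Kcnk2, was higher in cortical cells, and 4 genes were lower, namely Kcnj10, Kcnd2, the sodium-activated channel gene Kcnt1 and Kcnq1ot1. Of the 55 members 36 were tested by edgeR (quasi-likelihood, p adjusted after Benjamini and Hochberg over all 11781 genes tested), and 5 passed an adjusted p of 0.05, which is 13.9% of them. Over all tested genes 6.81% were called, 403 higher (3.42%) and 399 lower (3.39%). At an unadjusted p under 0.05 there were 14 of the 36 members, beside 17.4% of all tested genes. With raw library totals in place of TMM, 682 genes were called higher and 244 lower. A member could pass the low-count filter through one region alone, so the share among tested members is not one of all members. Their median log2 fold change was -0.14, and that of all tested genes -0.01. Cortical and subcortical libraries did not overlap for 9 of the 36 tested members, 4 of them higher and 5 lower in cortical cells. Over all tested genes 6.54% were higher and 5.64% lower without overlap.

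**Figure D2:**
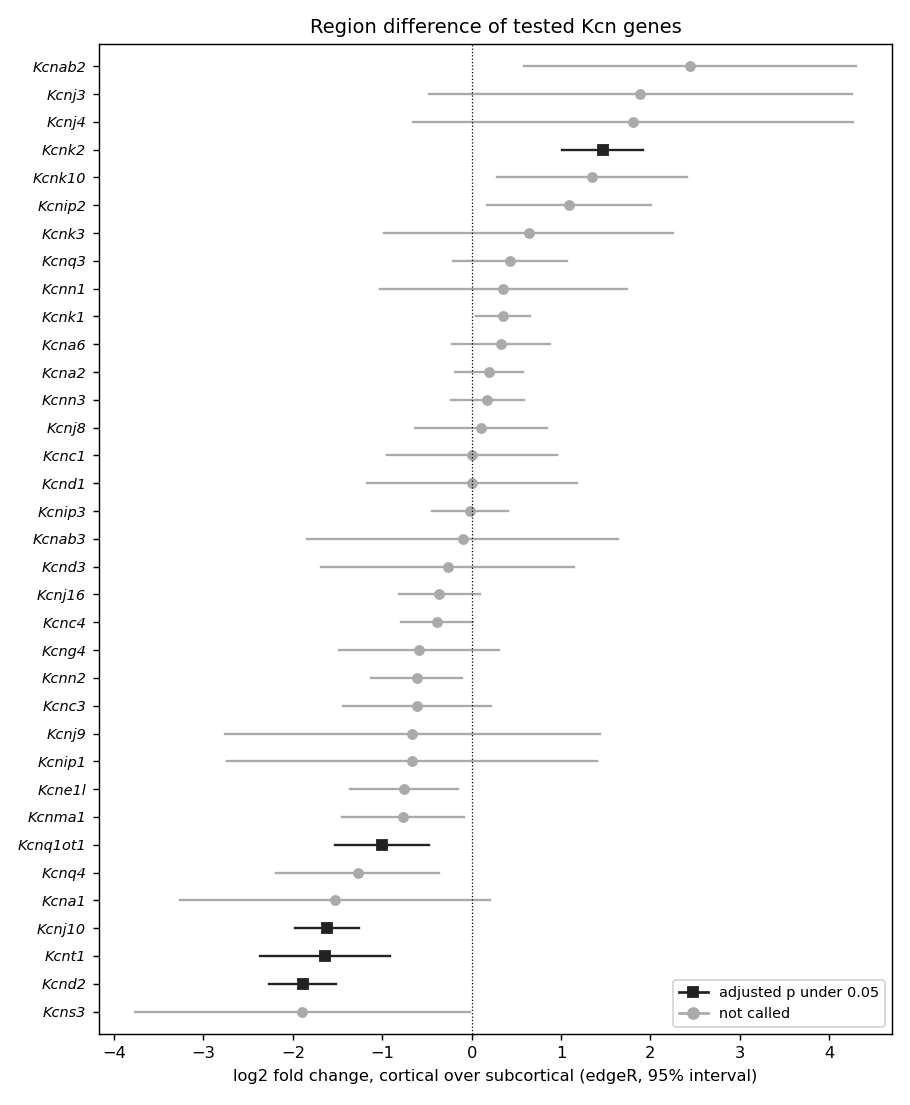
Log2 fold change, cortical over subcortical, of tested Kcn genes with 95% intervals from edgeR's quasi-likelihood fit (4 against 4 libraries). Black squares mark the 5 genes with an adjusted p under 0.05, and grey circles genes not called, whose intervals are wide for the genes of low count at both ends.

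Among the inward rectifiers, Kcnj10 (ENSMUSG00000044708) was 3.06-fold lower in cortical astrocytes. It stood at 374, 335, 423 and 342 CPM in the cortical libraries of mice 1 to 4, against 1176, 866, 1447 and 1020.5 CPM in the subcortical ones. The lowest subcortical library was thus above the highest cortical one. Its log2 fold change was -1.61 (SE 0.17, 95% interval -1.97 to -1.25, edgeR adjusted p = 1.22e-06, lower in the cortical library of 4 of 4 mice). Oligodendrocyte markers, whose cells also express Kcnj10, were lower in the same libraries, as given above, and their part in this difference was not tested.

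Kcnj16 (ENSMUSG00000051497), the partner subunit, did not pass the test. It stood at 411, 430.2, 603 and 936 CPM in cortical libraries, against 716, 731, 643 and 970.1 CPM in subcortical ones, so that the cortical library of mouse 4 lay among the subcortical values. Its log2 fold change was -0.36 (SE 0.22, 95% interval -0.82 to 0.09, edgeR adjusted p = 0.441). Without the cortical library of mouse 4 it was -0.67, and the edgeR adjusted p was 0.0329. When any other single library was left out the edgeR adjusted p was 0.357 to 0.736. Kcnj16 was lower in the cortical library of 4 of 4 mice. With all libraries and the mouse as a block the log2 fold change was -0.43 (SE 0.17, edgeR adjusted p = 0.149), also not called.

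The ratio of Kcnj10 to Kcnj16 counts within a library does not depend on scaling. It was 0.909, 0.779, 0.702 and 0.366 in the cortical libraries of mice 1 to 4, against 1.64, 1.18, 2.25 and 1.05 in the subcortical ones. Kcnj16 thus had more counts than Kcnj10 in each cortical library and fewer in each subcortical one. This ratio and that of Kcnk2 to Kcnk1 were chosen after the values were seen and were given no test.

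**Figure D3:**
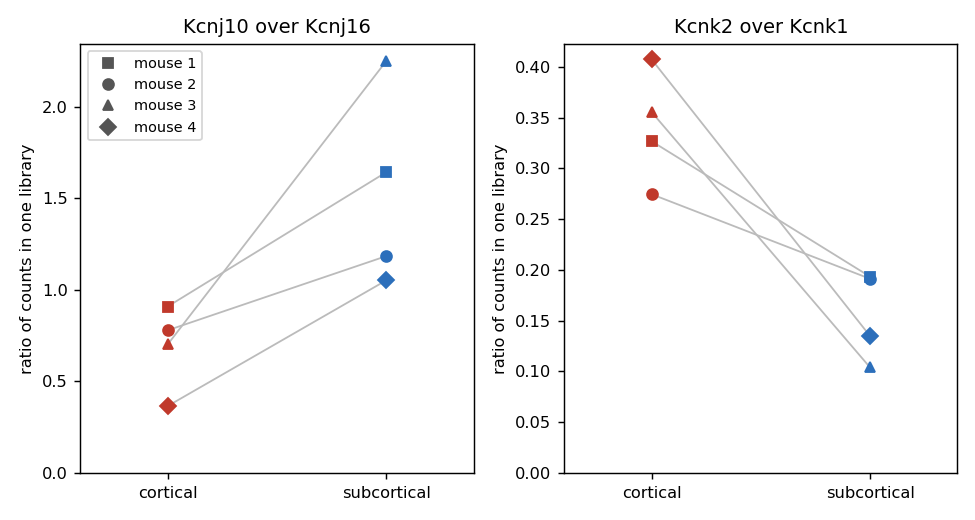
Ratio of counts of 2 genes within each library, for cortical (left, red) and subcortical (right, blue) libraries, with lines joining the libraries of a mouse. Kcnj10 over Kcnj16 lies between 0.366 and 0.909 in cortical and between 1.05 and 2.25 in subcortical libraries, and Kcnk2 over Kcnk1 is higher in the cortical library of each mouse.

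The other 7 inward rectifier genes were far less abundant, and of the 6 tested members of this family 1 was called. Kcnj8, the pore subunit of a channel closed by ATP that is known from pericytes, averaged 27.5 ± 6.27 CPM in cortical against 25.6 ± 14.97 CPM in subcortical libraries (SD, n = 4), with a log2 fold change of 0.11 (95% interval -0.63 to 0.85, edgeR adjusted p = 0.932). It falls outside the rule for named genes and was chosen after its values were seen, beside the pericyte markers above. Kcnj3, Kcnj4 and Kcnj9, subunits known from neurons, averaged 1.27 to 6.15 CPM in each region and were not called.

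Of 4 tested leak channel genes, Kcnk2 (ENSMUSG00000037624) was called, 2.77-fold higher in cortical astrocytes. It stood at 390.5, 326, 391 and 509.7 CPM in the cortical libraries of mice 1 to 4, against 193, 172, 83.5 and 138 CPM in the subcortical ones. Every cortical library was above every subcortical one. The log2 fold change was 1.47 (SE 0.22, 95% interval 1.02 to 1.92, edgeR adjusted p = 9.78e-05, higher in the cortical library of 4 of 4 mice).

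Kcnk1 (ENSMUSG00000033998), the most abundant channel gene, stood at 1195, 1187, 1099 and 1251 CPM in cortical libraries, against 997, 897, 804 and 1021 CPM in subcortical ones. The groups did not overlap either, but the difference was small, at 0.35 on the log2 scale (SE 0.15, 95% interval 0.05 to 0.65), and it missed the threshold (edgeR adjusted p = 0.199). With raw library totals, which shifted the median log2 fold change of all genes to 0.19, the value was 0.56 and the adjusted p 0.0207. Kcnk2 counts were 0.327, 0.275, 0.356 and 0.407 of Kcnk1 counts in cortical libraries, against 0.193, 0.191, 0.104 and 0.135 in subcortical ones. The share of Kcnk2 beside Kcnk1 was thus higher in the cortical library of each mouse.

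Kcnk10, which encodes the TREK-1 relative TREK-2 and is named outside the rule because its call changed with the libraries used, stood at 38.2, 38.6, 41.8 and 5.54 CPM in cortical libraries, against 12.5, 4.33, 24.5 and 7.24 CPM in subcortical ones. The cortical library of mouse 4 was far below the other 3 cortical ones. Its log2 fold change was 1.34 (SE 0.51, edgeR adjusted p = 0.144). The edgeR adjusted p was 0.0123 without the cortical library of mouse 4 and 0.0347 without the subcortical library of mouse 3. Leaving out any other single library gave 0.244 to 0.346.

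Among the tested voltage-gated genes Kcnd2 (ENSMUSG00000060882) had the smallest edgeR adjusted p and was the only one called. It encodes Kv4.2, the pore subunit of a fast inactivating A-type current. Kcnd2 stood at 51.9, 59.96, 57.0 and 78.5 CPM in the cortical libraries of mice 1 to 4, against 242, 215, 220.2 and 239 CPM in the subcortical ones. The groups were far apart and the spread within each was small. The log2 fold change was -1.89 (SE 0.18, 95% interval -2.26 to -1.51, edgeR adjusted p = 2.27e-07), a 3.70-fold lower level in cortical cells, seen in 4 of 4 mice. The related Kcnd1 and Kcnd3 averaged 8.83 and 5.74 CPM in cortical against 8.83 and 6.83 CPM in subcortical libraries and were not called.

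The remaining voltage-gated genes gave no call. Kcna2, the gene of the delayed rectifier Kv1.2, averaged 223 ± 44.7 CPM in cortical against 196 ± 34.3 CPM in subcortical libraries (SD, n = 4), with a log2 fold change of 0.19 (95% interval -0.19 to 0.57, edgeR adjusted p = 0.676). Kcnc4, of the fast Kv3 family, averaged 61.0 ± 4.28 CPM in cortical against 80.0 ± 9.22 CPM in subcortical libraries (SD, n = 4). Its libraries did not overlap between regions on TMM-scaled sizes but did on raw library totals, and the log2 fold change of -0.39 (SE 0.19) missed the threshold (edgeR adjusted p = 0.309). Kcna6, another delayed rectifier gene, averaged 46.7 ± 9.69 CPM in cortical against 37.3 ± 10.5 CPM in subcortical libraries (SD, n = 4). Kcnq3, an M-current subunit gene, averaged 24.9 ± 5.11 CPM in cortical against 18.5 ± 3.56 CPM in subcortical libraries, and Kcng4, a modifier that forms no channel alone, averaged 10.8 ± 4.21 CPM in cortical against 16.4 ± 6.76 CPM in subcortical libraries (SD, n = 4). Their adjusted p lay between 0.543 and 0.601 in the same edgeR fit.

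The promoters of Kcnj10 and Kcnd2 are shown because these 2 genes had the smallest adjusted p among the members and are lower together in cortical cells. The stretches are the 250 bases before the annotated start of each gene, on the plus strand, from RefSeq with the build GRCm38.p6, which is older than the build GRCm39 of the counts. They lie at chr1:172340960-172341209 for Kcnj10 and chr6:21215096-21215345 for Kcnd2. Capitals mark matches on either strand to a GC box (GGGCGG) or to a recognition motif of nuclear factor I, NFI (TTGGCA).
Kcnj10: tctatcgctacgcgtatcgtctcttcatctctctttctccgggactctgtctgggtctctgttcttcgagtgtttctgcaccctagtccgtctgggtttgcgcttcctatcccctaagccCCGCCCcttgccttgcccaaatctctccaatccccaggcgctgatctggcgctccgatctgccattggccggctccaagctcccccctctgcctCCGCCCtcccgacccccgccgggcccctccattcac
Kcnd2: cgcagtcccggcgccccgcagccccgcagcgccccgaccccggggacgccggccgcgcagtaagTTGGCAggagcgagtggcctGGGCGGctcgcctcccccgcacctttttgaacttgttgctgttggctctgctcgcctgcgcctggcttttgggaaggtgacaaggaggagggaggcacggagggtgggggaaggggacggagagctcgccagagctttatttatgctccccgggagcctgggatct
The Kcnj10 stretch held 2 GC boxes and no NFI motif, and the Kcnd2 stretch 1 GC box and 1 NFI motif, with no overlap between matches. Of 32851 such stretches over all annotated starts, 32.7% held a GC box and 12.3% an NFI motif. On neither strand did these stretches hold the LIM homeodomain letters TAATTA, which 4.84% of all stretches held. The Iroquois letters ACANNTGT, in 6.31% of all, were missing from both as well. The same was true of the SOX letters AACAAT, found in 9.42% of all stretches, and of the box for the TBP factor, spelled TATAAA and found in 12.4%. Both were rich in G and C, at 62.0% for Kcnj10 and 68.8% for Kcnd2, beside a median of 52.4% over all stretches. The counts come from 3′ ends and do not measure these starts.

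Among the channels gated by ions inside the cell, Kcnt1 (ENSMUSG00000058740) was called lower in cortical cells. It encodes the sodium-activated channel Slack. Kcnt1 stood at 17.9, 14.1, 15.7 and 7.95 CPM in the cortical libraries of mice 1 to 4, against 32.5, 37.0, 76.5 and 27.0 CPM in the subcortical ones. The groups did not overlap, and the subcortical library of mouse 3 was the highest. The log2 fold change was -1.64 (SE 0.35, 95% interval -2.36 to -0.91, edgeR adjusted p = 0.00394).

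The calcium-activated genes of this family were not called. Kcnn3, the gene of the small-conductance channel SK3, averaged 118 ± 22.4 CPM in cortical against 105 ± 19.7 CPM in subcortical libraries (SD, n = 4, edgeR adjusted p = 0.734). Kcnn2, the gene of SK2, averaged 54.1 ± 10.4 CPM in cortical against 82.4 ± 26.2 CPM in subcortical libraries (SD, n = 4), a difference of -0.61 on the log2 scale (SE 0.25) at an edgeR adjusted p of 0.172. Without the subcortical library of mouse 2 the value was -0.81 and the edgeR adjusted p 0.0283, but with any other single library left out it was 0.149 to 0.403. Kcnma1, the pore gene of the large-conductance BK channel, averaged 22.9 ± 8.69 CPM in cortical against 38.8 ± 15.01 CPM in subcortical libraries (SD, n = 4, edgeR adjusted p = 0.216).

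Of the auxiliary subunit genes 6 were tested, and edgeR's quasi-likelihood test called 0, beside 6.81% of all tested genes. At an unadjusted p under 0.05 it had 3 (Kcnab2, Kcnip2 and Kcne1l), beside 17.4% of all tested genes. DESeq2 called 1, Kcnab2, beside 8.73% of all tested genes. Kcnab2, a beta subunit gene of Kv1 channels that is named outside the rule because its call changed with the tool, stood at 6.20, 2.87, 6.31 and 6.74 CPM in the cortical libraries of mice 1 to 4, against 1.66, 0.481, 0.349 and 1.39 CPM in the subcortical ones. The regions did not overlap, at few counts, 91 in cortical and 11 in subcortical libraries in all. By library these were 25, 11, 27 and 28 cortical and 4, 1, 1 and 5 subcortical counts. Kcnab2 thus passed the low-count filter through cortical libraries alone, and its lack of overlap is no separate support for a difference. Its log2 fold change was 2.45 (SE 0.89, 95% interval 0.59 to 4.30, edgeR adjusted p = 0.122) and 2.49 with DESeq2 (adjusted p = 0.0441), higher in the cortical library of 4 of 4 mice. Kcnip3, whose product binds calcium and Kv4 channels, was the only abundant one, at 109.9, 145, 159 and 204 CPM in the cortical libraries of mice 1 to 4, against 190.2, 167, 109.7 and 161 CPM in the subcortical ones. The regions overlapped, with a log2 fold change of -0.02 (95% interval -0.45 to 0.40, edgeR adjusted p = 0.979). This interval lies apart from that of Kcnd2, the gene of its Kv4 partner, but the difference between the genes was not tested. Kcnip2, of the same family, is named outside the rule and was chosen after its values were seen. It stood at 13.15 to 22.89 CPM in cortical against 4.54 to 12.07 CPM in subcortical libraries, higher in the cortical library of 4 of 4 mice. Its log2 fold change was 1.09 (SE 0.44, 95% interval 0.17 to 2.004), opposite in sign to that of Kcnd2, but it was not called (edgeR adjusted p = 0.178). Kcne1l, also called Kcne5, averaged 24.8 ± 6.94 CPM in cortical against 41.7 ± 11.0 CPM in subcortical libraries (SD, n = 4, edgeR adjusted p = 0.154). Kcnab3, another beta subunit gene, averaged 3.86 ± 3.20 CPM in cortical against 4.10 ± 2.47 CPM in subcortical libraries (SD, n = 4), with a 95% interval of -1.84 to 1.64 for its log2 fold change.

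Kcnq1ot1 (ENSMUSG00000101609) carries the prefix of the family but is an imprinted noncoding RNA antisense to Kcnq1, not a channel subunit. It stood at 168, 168, 198 and 257 CPM in the cortical libraries of mice 1 to 4, against 283, 703, 250.2 and 352 CPM in the subcortical ones. The subcortical library of mouse 2 was the highest by far, and the subcortical library of mouse 3 lay below the cortical one of mouse 4. Its log2 fold change was -1.003 (SE 0.25, edgeR adjusted p = 0.0152). Without the subcortical library of mouse 2 it was -0.58 with an adjusted p of 0.0959, and without the cortical library of mouse 1, 2 or 3 the adjusted p was 0.0660, 0.0578 and 0.0510. With DESeq2, which called 8.73% of all tested genes, it was 0.0758. That subcortical library also had the largest share of reads assigned to no gene, 40.7% against 30.2 to 36.9% in the other 7, and its part in this value was not tested. Kcnq1 itself had 0 counts, which allows up to 0.701 to 1.44 CPM in a single library.

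The 19 members that missed the low-count filter had 18 to 129 counts each. Of these, 14 had more counts in cortical libraries after scaling for library size. Members were chosen by raw counts summed over all libraries, and in each mouse the cortical library was the larger one. The rule thus admits genes that are higher in cortical cells more easily. The same share was not computed for other genes of low count, so 14 of 19 cannot be read as a cortical bias. Counts often came from few libraries, and for 9 of the 19 a single library held at least 50% of them. Kcnb2, the gene of Kv2.2, had 17, 2, 9 and 5 counts in cortical libraries and 0 in subcortical ones, at least 7.38-fold higher in cortical cells when 3 counts are put in place of the 0 for the group. Kcnb2 was chosen after its values were seen. Kcnh1, the most abundant ether-a-go-go gene, had 35 cortical and 5 subcortical counts, and Kcnmb1, the gene of a BK beta subunit, had 31 cortical and 33 subcortical counts. The floor of 3 counts behind the bound for Kcnq1 above covers counting error only, since reads without molecular identifiers are not independent molecules.

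Of the other 44 Kcn genes, 21 had 1 to 14 counts and 23 had 0 counts over the 8 libraries, so that expression of those at 0 was not detectable at this depth. Among them were Kcnj6 and Kcnk18.

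Summed by subfamily, the balance of the families differed between regions, mostly through the few abundant genes described above. The 9 Kcnj genes summed to 828, 823, 1069 and 1323 CPM in the cortical libraries of mice 1 to 4, against 1927, 1621, 2149.5 and 2008 CPM in the subcortical ones. The 8 Kcnk genes summed to 1639, 1558, 1542 and 1789 CPM in cortical libraries, against 1221, 1082, 919.8 and 1173 CPM in subcortical ones. Both sums were apart between regions, in opposite directions. Most of the Kcnj sum was Kcnj10, at a mean of 369 CPM in cortical against 1128 CPM in subcortical libraries, and Kcnj16, at 595 against 765 CPM. Most of the Kcnk sum was Kcnk1, at 1183 against 930 CPM, and Kcnk2, at 404 against 146 CPM. The sums therefore do not show a shift of whole families. Kcnk genes held 42.5 to 48.5% of all channel CPM (without Kcnq1ot1) in cortical and 22.1 to 27.9% in subcortical libraries, and Kcnj genes 24.5 to 31.4% in cortical and 41.7 to 51.6% in subcortical libraries. These shares do not depend on scaling, but they are parts of the same total, so a larger Kcnj share lowers the Kcnk share. The 3 Kcnd genes summed to 76.4 ± 14.1 CPM in cortical against 245 ± 19.2 CPM in subcortical libraries (SD, n = 4), most of it Kcnd2. The Kcnj, Kcnk and Kcnd sums were also apart on raw library totals. Other sums depended on the scaling. The Kcnc sum and that of the ion-gated genes (Kcnm, Kcnn, Kcnt) did not overlap between regions with TMM factors, with log2 ratios of the means of -0.39 and -0.35. On raw library totals both overlapped, with ratios of -0.18 and -0.15. The Kcna sum overlapped with TMM factors and was higher in each cortical library on raw totals, whereas the Kcnip, Kcne and Kcnq sums overlapped with both. All members but Kcnq1ot1 summed to 3614 ± 413 CPM in cortical against 4232 ± 265 CPM in subcortical libraries (SD, n = 4), with overlap. No test was given to these sums.

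**Figure D4:**
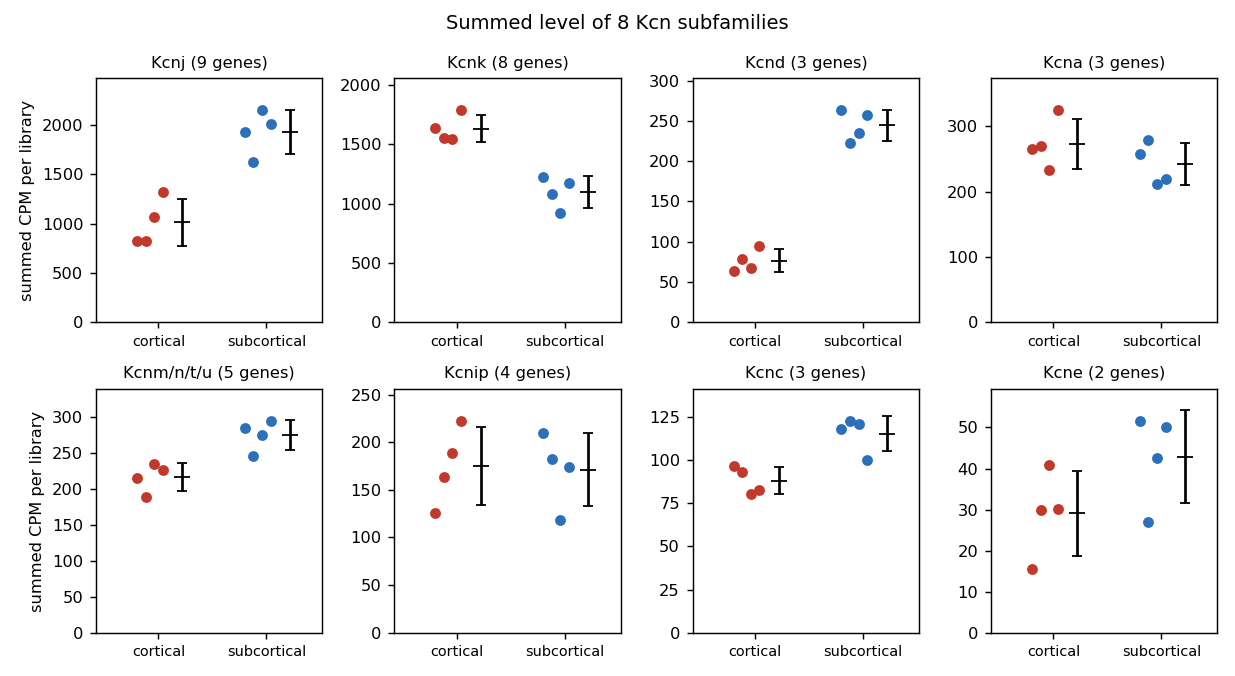
Summed CPM of 8 Kcn subfamilies in each library, cortical (red) left of subcortical (blue), with the mean and SD of the 4 libraries beside the points and each axis starting at 0. The Kcnk sum is 1632 ± 113 in cortical and 1099 ± 133 in subcortical libraries, while the Kcnj sum is 1010.5 ± 238 in cortical and 1927 ± 223 in subcortical ones.

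Within each mouse the direction held for the genes called. The log2 ratio of cortical to subcortical CPM, with 1 added to each, was -1.77 to -1.37 over the 4 mice for Kcnj10, -2.20 to -1.59 for Kcnd2 and 0.92 to 2.21 for Kcnk2. Kcnt1 was lower in the cortical library of each mouse, and so was Kcnq1ot1, with ratios of -2.06 to -0.34. Kcnk2 ratios were larger in mice 3 and 4 than in mice 1 and 2, of which each pair holds a female and a male.

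**Figure D5:**
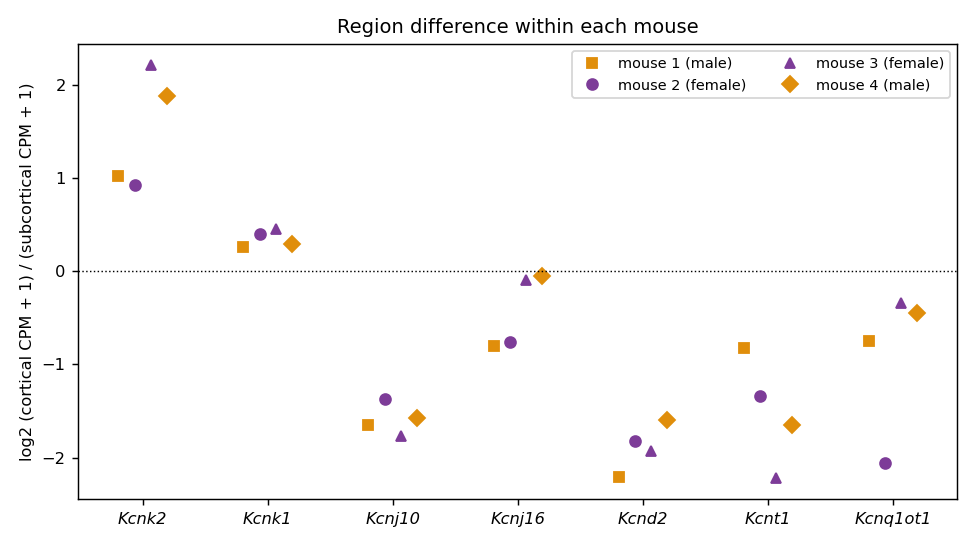
Log2 ratio of cortical to subcortical CPM (1 added to each) within each of 4 mice for 7 Kcn genes, females in purple and males in orange. Kcnj10 and Kcnd2 lie between -2.20 and -1.37 in all mice, Kcnk2 and Kcnk1 above 0, and Kcnj16 between -0.80 and -0.05.

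Sex was compared because the series holds mice of both sexes, with counts summed per mouse, 2 females against 2 males. None of 46 tested members was called by edgeR's quasi-likelihood test or by DESeq2, beside 0.0373% of 13402 tested genes with either tool, and 1 member had an unadjusted p under 0.05 with each (Kcnj14), beside 3.73% of all genes with edgeR. Kcnj10 averaged 379 CPM in female and 358 CPM in male cortical libraries, and 1157 CPM in female and 1098 CPM in male subcortical libraries, with a log2 fold change, female minus male, of 0.03 (95% interval -0.41 to 0.48). The interval for Kcnk2 was -0.65 to 0.10. The difference of the region effects between the sexes was called for 0 of 46 tested members with edgeR and with DESeq2, and for 0.0% of all 13334 tested genes. At an unadjusted p under 0.05 there were 3 members with edgeR (Kcnmb1, Kcnj3 and Kcnj9), beside 3.76% of all genes, and 5 members with DESeq2. The share of all genes at this unadjusted p with DESeq2 was not computed, for sex or for the interaction. The DESeq2 counts of members can therefore not be read as an excess. For Kcnj10 this difference was 0.02 (95% interval -0.71 to 0.75), for Kcnd2 -0.002 (interval -0.76 to 0.76) and for Kcnk2 0.06 (interval -0.81 to 0.93), so that region effects that differ by less than these bounds could not be told apart.

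Other genes of potassium handling differed in both directions. Of 12 tested pump and cotransporter genes, 2 were higher and 3 lower in cortical cells. The sodium pump subunit gene Atp1b1 stood at 436 ± 23.7 CPM in cortical against 31.9 ± 3.75 CPM in subcortical libraries, while the related Atp1b2 stood at 2495 ± 128 CPM in cortical against 4124 ± 411 CPM in subcortical libraries (SD, n = 4). Of 12 tested genes of the endfoot complex that anchors Kir4.1, 1 was higher and 1 lower. The water channel gene Aqp4 was lower and stood at 483 ± 92.8 CPM in cortical against 1047 ± 212 CPM in subcortical libraries, and the dystrobrevin gene Dtna was higher, at 995 ± 108 CPM in cortical against 652 ± 144 CPM in subcortical libraries (SD, n = 4). Of 4 tested auxiliary subunits with other names, 1 was lower, Dpp6, which encodes a partner of Kv4 channels. Dpp6 averaged 55.9 ± 27.4 CPM in cortical against 142 ± 42.2 CPM in subcortical libraries (SD, n = 4), a difference of -1.35 on the log2 scale (SE 0.28) at an edgeR adjusted p of 0.00305. Of the HCN channel genes, Hcn2 was tested and not called, at 21.5 ± 8.74 CPM in cortical against 28.0 ± 17.4 CPM in subcortical libraries (SD, n = 4).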

How the data were processed

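Libraries were made with the QuantSeq 3′ forward kit, per the labels' protocols. Per the submitters' processing notes the tools were STAR 2.6.0, HTSeq 0.9.0, FastQC 0.11.5 and DESeq2 1.35.0, with GRCm39. Settings, any molecular identifiers and the strand used in counting are not given in the sources used here. Antisense partners therefore cannot be told apart. In GENCODE exons of Kcnk2 overlap a gene on the other strand with 71 counts in all (A430027H14Rik), and Kcnq1ot1 overlaps Kcnq1. Raw counts for each gene were deposited by the authors, with a table for each sample, and its 5 summary rows were left out. Reads assigned to no gene were 30.2 to 40.7% and ambiguous reads 0.384 to 0.548% of each library. A series table with 8 columns of normalized values was not used here. Of 55417 gene rows, 52083 had a symbol in the reference tables.

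Region was tested with edgeR 4.0.16 in R 4.3.3 (TMM factors, quasi-likelihood test, and filterByExpr with a minimum of about 10 counts in 4 libraries), 4 libraries against 4, with Benjamini-Hochberg adjustment over all genes at 0.05. Sex was tested on counts summed per mouse, and the interaction in a fit with a mean per sex and region. The fit was tested on simulated data. Alternatives were RLE factors, raw library totals, DESeq2 1.42.0, no low-count filter, the mouse as a block, and leaving out each library or mouse. With 8 libraries the 4 against 4 design limits the precision, and the error of each value is given beside it.

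The members and lists were chosen with earlier results of these data known. Named genes are the called members, the 15 with the highest mean CPM and the highest of each subfamily; exceptions are marked. The mouse number pairs the samples, since both came from the same animal. After the region means were removed, samples of a mouse correlated at 0.0247 to 0.0656 and samples of different mice at -0.0935 to 0.0522. No library was a repeat of another within sampling noise, with chi-square values over their degrees of freedom of 12.1 to 24.7 within a region. Results for some genes are not reported here. Overlap of the regions on raw library totals was added after seeing the data.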

Additional observations from a re-analysis of the deposited data

Results flagged for a closer look

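Among the 21 named genes, 42 groups of 4 libraries were searched for a library far from the other 3. The measure was Dixon's gap at its 95% critical value, which chance exceeds in about 1 of 20 groups of normally distributed values. There were 4 such values, all in genes below 10 CPM, where this rate does not hold. A gene with counts in a single library of a region, as Kcnh1 below, has the full gap of 1.0 whatever its level. Kcnab3 stood at 7.80 CPM in the subcortical library of mouse 4, against 2.80 to 2.91 CPM in the other subcortical libraries. Kcnh1 stood at 2.40 CPM in the subcortical library of mouse 2 and had 0 counts in the others. Kcnmb1 stood at 7.04 CPM in the cortical library of mouse 2, against 0 to 0.482 CPM in the other cortical ones, and at 7.52 CPM in the subcortical library of mouse 4, against 0 to 1.25 CPM in the other subcortical ones.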

How the results depend on the processing

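Kcnk2, Kcnj10, Kcnd2 and Kcnt1 kept their direction and their call in all 13 alternatives for region, with Kcnt1 nearest to the threshold (edgeR and DESeq2 adjusted p of 2.21e-05 to 0.0431). The count of members higher in cortical cells, 1 as reported, was 2 with DESeq2 (Kcnab2 added), 2 with raw library totals (Kcnk1 added) and 3 without a low-count filter (Kcnk10 among those added). It was 1 to 3 when single libraries were left out, above 1 without cortical 3 or 4 or any one subcortical library, with Kcnk10 added without cortical 4 or subcortical 3. The count of lower members, 4 as reported, was 3 to 5 without single libraries. With the mouse as a replicate block the same members were called, 1 higher and 4 lower, and 885 genes in all in place of 802; the block changed no call of a member. By sex 0 to 1 members were called when single mice were left out (Kcnk10 without mouse 1, where the lone male is assumed to vary like the females), and 0 by the interaction, also with the block. The causes of these changes were not tested. Members below 10 CPM are limited by depth.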

Other observations

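Kcnj14, the gene of the inward rectifier Kir2.4, had 31 and 22 counts in the cortical libraries of the female mice 2 and 3 and 0 and 1 in those of the male mice 1 and 4. In the subcortical libraries it had 0 and 3 counts in the females and 6 and 0 in the males. With edgeR's quasi-likelihood test on counts summed per mouse the adjusted p for sex was 0.999, and the unadjusted p 0.0339. The gene was chosen after its values were seen.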
